A study of Mus musculus with 12 samples.

Results

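The dystrophin complex genes on this array were Sntb2, Dag1, Sgcb and Sgce, measured by 5 of the 28704 probes. They were taken by name, from probes whose annotation gave 1 gene symbol and whose symbol was that of a syntrophin, dystrophin, utrophin, dystroglycan, or beta- or epsilon-sarcoglycan. Of the 10 mouse genes with such a name in RefSeq, 4 had a probe of that name, and the others are not analysed here. Dag1 had 2 probes and each of the other genes 1. The family was taken up because Sntb2 responded strongly to fluid flow in these samples. The flow change of Sntb2 is therefore given as a description, with no test and as support for nothing else.

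The dystrophin complex spans the cell membrane and ties the actin cytoskeleton to laminin in the surrounding matrix. Dystroglycan is its core, with an outer part that binds laminin and a membrane-spanning part that binds dystrophin or its widely expressed relative utrophin. Sarcoglycans stand beside dystroglycan in the membrane, and syntrophins are adaptors on the inner face that bind dystrophin or utrophin and, through a PDZ domain, channels, transporters and signalling proteins. The complex is best known from skeletal muscle, where its loss causes muscular dystrophies.

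The cells were MC3T3-E1, a clonal osteoblast-like line from mouse calvaria. In the 6 shear samples a confluent layer on glass spent 5 h under pulsatile flow at 1 Hz, at a mean shear of 5 dyn per square centimetre. The 6 control samples were held without flow in the same kind of chamber. Cells of both groups were grown with 5% serum, and the chamber medium held 1% serum. No label says that replicates were separate cultures, so the p-values measure a spread that may be technical.

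Total RNA was labelled with Cy5 or Cy3 and hybridised to 6 spotted arrays, each taken to hold 2 samples of the same group. Signals are log2 values relative to the median of the probe's block of features on the array, so 0 is the block median. A level can be set against the same probe in another sample, not against another probe. Features with a value numbered 18434 to 23790 per sample, and control replicate 4 had the fewest. Because RNA came from whole cultures, a change in RNA per cell and a change in the share of cells with the transcript cannot be told apart.

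Sntb2, the gene of beta-2-syntrophin on chromosome 8 (RefSeq annotation of GRCm38, Entrez gene 20650), had a high signal in every shear sample and a signal near its block median in every control sample. All its values come from 1 probe, which the platform annotation assigns to this gene, and the sequence of the spotted clone was not checked here. In shear replicates 1 to 6 its log2 signal was 2.78, 3.87, 3.05, 2.78, 3.88 and 4.19. In control replicates 1 to 6 it was 0.03, 0.26, -0.83, 0.10, -0.36 and -0.22. The lowest shear sample lay 2.52 above the highest control sample on the log2 scale. The means were 3.42 ± 0.63 in shear and -0.17 ± 0.39 in control samples (SD, n = 6 each). The change, shear minus control, was 3.59 ± 0.41 (limma, SE), or 12.1-fold, with a 95% interval of 2.72 to 4.47. Since the family was chosen for this change, the estimate may be too large, and its interval is a description that tests nothing.

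**Figure D1:**
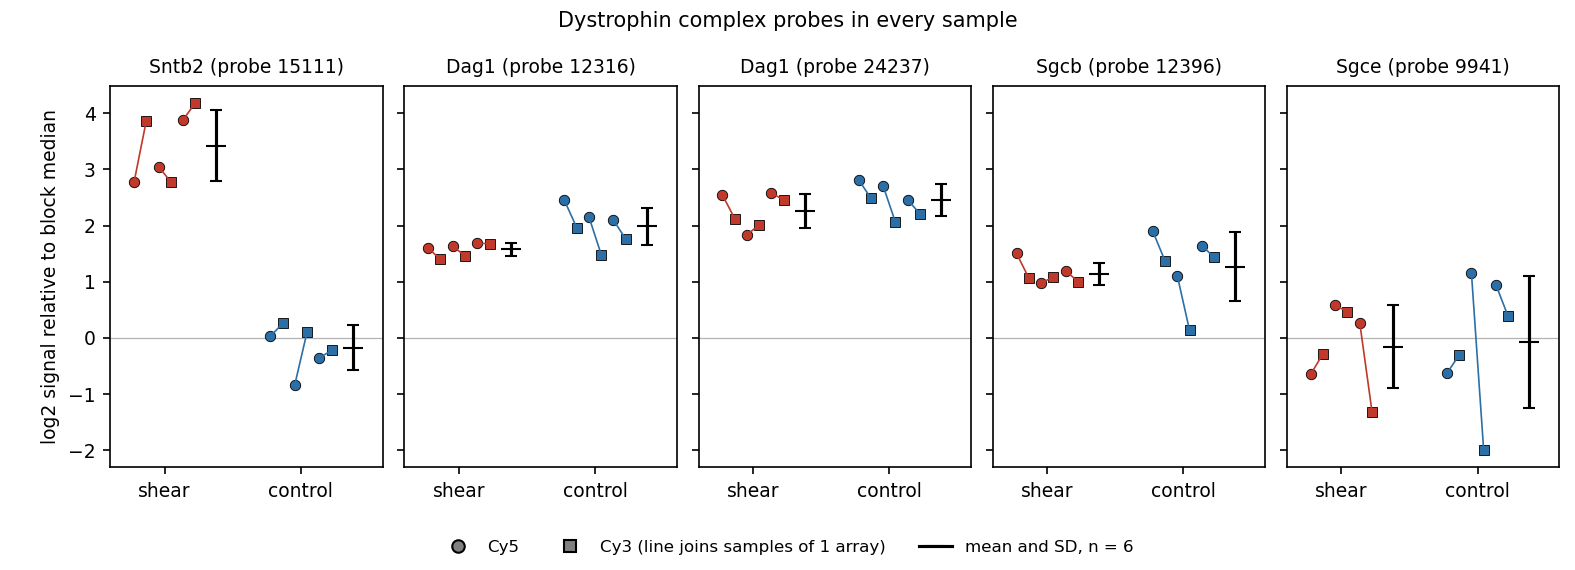
Log2 signal relative to the block median (vertical axis) of the 5 dystrophin complex probes in the 6 shear and 6 control samples. Circles are Cy5 and squares Cy3 samples, a line joins the 2 samples of an array, and bars are mean and SD. Sntb2 lies between 2.78 and 4.19 in shear and between -0.83 and 0.26 in control samples, and the groups overlap for the 4 other probes.

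Net fluorescence was worked back from the same log2 values, as the whole numbers that they give in each block, so it is the same measurement without the scaling to the block median. Sntb2 gave 3749, 4286, 8044, 7284, 3771 and 15306 scanner units in shear replicates 1 to 6. It gave 662, 560, 286, 348, 412 and 337 units in control replicates 1 to 6. The dimmest shear sample was 5.66 times as bright as the brightest control sample, although the median fluorescence of all features ranged from 243 to 868 units in shear and from 293 to 567 units in control samples. The ratio of the group medians was 15.2 on this unscaled scale.

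**Figure D2:**
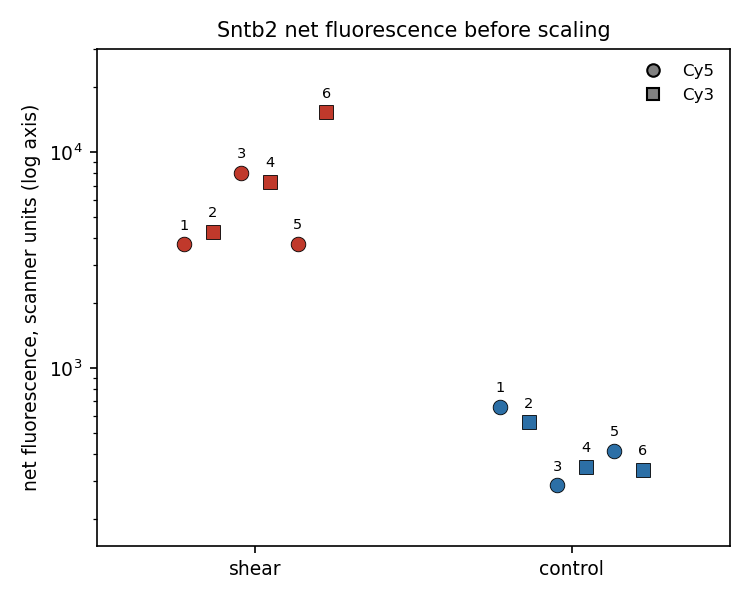
Net fluorescence of the Sntb2 probe in scanner units (log axis) in each shear and control sample, with replicate numbers above the points, circles for Cy5 and squares for Cy3. The shear samples lie between 3749 and 15306 units and the control samples between 286 and 662.

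The array means of Sntb2 ranged from 2.91 to 4.03 in the 3 shear arrays and from -0.37 to 0.14 in the 3 control arrays. The array of shear replicates 5 and 6 was the highest, and that of shear replicates 3 and 4 the lowest of its group. Cy3 samples were the higher ones in all arrays except that of shear replicates 3 and 4, and the 2 samples of an array differed by 0.13 to 1.09. The gap between the lowest shear and the highest control sample was larger than any difference within an array. Within the shear group the SD of Sntb2 was larger than that of 90.1% of the 21883 probes tested, while in the control group it was larger than that of 55.7%. Over 30 alternative settings the change ranged from 3.29, without the array of shear replicates 5 and 6, to 3.85, without that of shear replicates 3 and 4.

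Among the 21883 probes, 1.62% passed the limma fit at an adjusted p of 0.05 (Benjamini-Hochberg), 1.42% higher and 0.201% lower under shear. None of the 4 probes of Dag1, Sgcb and Sgce passed, and none had an unadjusted p below 0.05. The groups did not overlap for 7.94% of all probes, and they overlapped for each of these 4. Sntb2 is left out of both counts, since the family was chosen for its change. By the change itself, Sntb2 ranked 5 from the top of all probes. The median change over all probes was 0.10, and centring on the features measured in every sample moved this median by -0.13. Relative to the median of all probes, Sntb2 lay at 3.49 with the main centring and at 3.48 with the other.

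**Figure D3:**
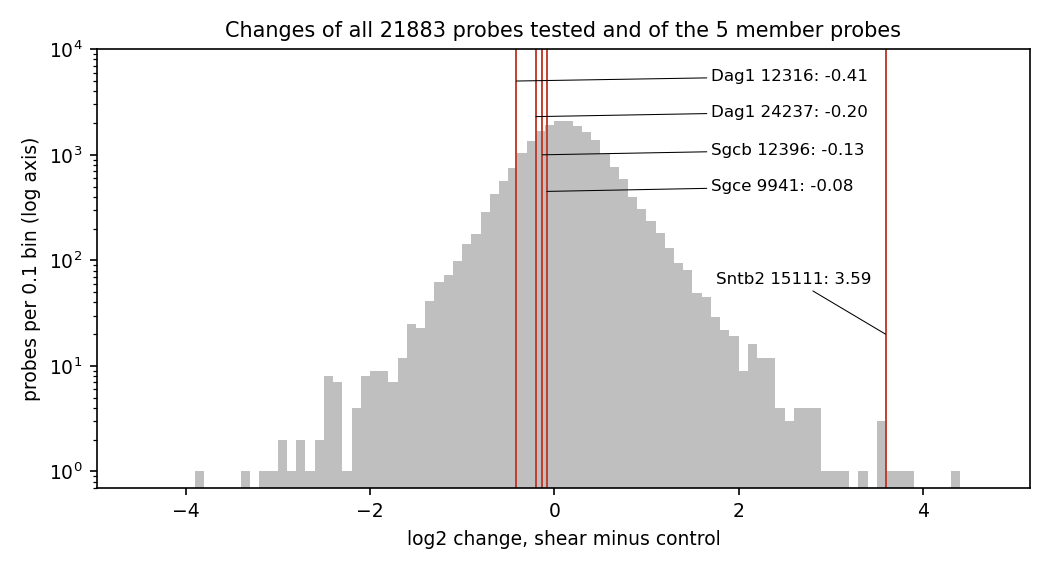
Number of probes (log axis) by log2 change, shear minus control, in bins of 0.1, for the 21883 probes tested, with red lines at the 5 dystrophin complex probes. Sntb2 lies at 3.59 in the upper tail, and the 4 other probes lie between -0.41 and -0.08.

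Dag1, on chromosome 9 (GRCm38, Entrez gene 13138), encodes the precursor that is cleaved into both parts of dystroglycan. Both probes had a lower mean in shear than in control samples, and neither passed the test. On probe 12316 the shear samples ran from 1.40 through a median of 1.62 to 1.69, and the control samples from 1.49 through 2.03 to 2.45. Of the control samples, 5 of 6 lay above every shear sample, and the exception was replicate 4. The array means ran from 1.50 to 1.68 in shear and from 1.82 to 2.21 in control arrays. How many of all probes show array means as separate as these was not counted.

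The means of probe 12316 were 1.58 ± 0.12 in shear and 1.99 ± 0.33 in control samples (SD, n = 6 each). Its change was -0.41 ± 0.24 (SE), with a 95% interval of -0.93 to 0.11 and adjusted p = 0.473 (limma, Benjamini-Hochberg). It stayed below 0 in all 29 settings in which the probe was fitted, between -0.63 with cyclic loess and -0.30 without the array of control replicates 1 and 2. The adjusted p in these settings ranged from 0.0893 to 0.653 (limma, Benjamini-Hochberg). The shear samples of this probe were tightly grouped, since 2.35% of all probes tested had a smaller SD in that group.

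On probe 24237, Dag1 ran from 1.84 through a median of 2.29 to 2.58 in shear samples and from 2.06 through 2.48 to 2.82 in control samples. The groups overlapped broadly, with 2 shear samples below every control sample and 2 control samples above every shear sample. The change was -0.20 ± 0.27 (SE), with a 95% interval of -0.78 to 0.38 and adjusted p = 0.797 (limma, Benjamini-Hochberg). It was below 0 in all 30 settings, from -0.43 to -0.03. Cy5 samples gave the higher value in 6 of 6 arrays on probe 12316 and in 5 of 6 on probe 24237. For Sntb2 the Cy5 sample was higher in 1 array.

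The sarcoglycan Sgcb lies on chromosome 5 (GRCm38, Entrez gene 24051) and encodes beta-sarcoglycan, a membrane subunit that is mutated in a form of limb-girdle muscular dystrophy. Its log2 signal ran from 0.98 through a median of 1.07 to 1.50 in shear samples and from 0.14 through 1.41 to 1.90 in control samples. All shear samples lay within the control range. The means were 1.14 ± 0.19 in shear and 1.27 ± 0.61 in control samples (SD, n = 6 each). Limma gave a change of -0.13 ± 0.34 (SE), a 95% interval of -0.84 to 0.59 and adjusted p = 0.906 (Benjamini-Hochberg). The sign turned positive without the array of control replicates 1 and 2 (0.056) and without that of control replicates 5 and 6 (0.0083).

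Epsilon-sarcoglycan, the product of Sgce on chromosome 6 (GRCm38, Entrez gene 20392), is the sarcoglycan found widely outside muscle, and its gene is imprinted. Sgce was the most variable of the complex probes. It ran from -1.31 through a median of 0.00 to 0.58 in shear samples and from -2.00 through 0.04 to 1.16 in control samples. Both the lowest and the highest value were control samples, replicates 4 and 3, which shared an array and differed by 3.16. Its SD was 0.73 in shear and 1.17 in control samples, larger than that of 93.9% and 97.6% of all probes tested in the same groups.

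The change of Sgce was -0.08 ± 0.88 (SE), with a 95% interval of -1.96 to 1.80 and adjusted p = 0.982 (limma, Benjamini-Hochberg). Its sign turned in 8 of 30 settings, with values from -0.52 without control replicate 4 to 0.34 without control replicate 3. The interval is the widest of the 5 complex probes.

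Control replicate 4 was the lowest control sample on both Dag1 probes, on Sgcb and on Sgce, but not on Sntb2, where replicate 3 was lowest. It had a value for 64.2% of the features, against 76.1% to 82.6% in the shear samples and 72.9% to 82.9% in the other control samples. Without this replicate the change of Sntb2 was 3.68. Without it the changes of Dag1 were -0.48 and -0.27 on probes 12316 and 24237, that of Sgcb was -0.27 and that of Sgce -0.52, and none of these 4 passed (limma).

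Other genes of the pathway were taken from 6 lists, which held 65 genes, of which 35 were tested on 1 probe each. Of these, 1 passed, Flnc, and it was higher under shear. The lists were chosen with earlier results of these data known, so this call is no independent support for the pathway. Over all 8926 named genes tested on 1 probe each, 1.79% passed, 1.6% higher under shear. The median change of the 35 genes was 0.20, against 0.11 over those named genes.

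Among the other subunits of the complex, 3 of 9 genes were tested and none passed. Sspn encodes sarcospan, a membrane protein that joins the sarcoglycans, and its change was -0.39 ± 0.21 (SE, n = 6 per group). A second probe of Sspn, outside the naming rule, gave -1.05, and neither passed (limma adjusted p = 0.424 and 0.0890). On that second probe the shear samples ran from -2.43 to -1.51 and the control samples from -1.77 to -0.48. The delta-sarcoglycan gene Sgcd was at -0.31 and beta-dystrobrevin, Dtnb, at 0.18. The list median was -0.31.

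Of the laminin chains and other matrix ligands of dystroglycan, 7 of 11 were tested and none passed, with a median of 0.20. The chain genes Lama2 (alpha 2) and Lamb1 (beta 1) lay at 0.69 each, with SEs of 0.23 and 0.27 and adjusted p = 0.160 and 0.234 (limma, Benjamini-Hochberg). Lama2 averaged 2.70 ± 0.28 in shear and 2.01 ± 0.12 in control samples (SD, n = 6 each), and its other tested probe gave 0.47. Lamb1 ran from 1.14 to 1.79 in shear and from 0.51 to 0.95 in control samples, without overlap, as for 7.94% of all probes. The groups overlapped on its 2 other probes, which gave -0.29 and 0.25. On the chosen probes the remaining ligands lay between -0.51 (Bgn, biglycan) and 0.60 (Lama1), and the 2 other Bgn probes gave -0.12 and -0.08. Lamc1 had 7 tested probes that differed widely, with 0.20 on the chosen probe and -0.68 to 1.19 on the others. None of them passed (limma).

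Enzymes that build the laminin-binding sugar chain of dystroglycan were tested for 7 of 16 genes, and none passed. The kinase gene Pomk lay at -1.09 ± 0.34 (SE) with adjusted p = 0.129, and the glycosyltransferase gene B3galnt2 at 0.79 ± 0.25 with adjusted p = 0.132 (limma, Benjamini-Hochberg). The 2 other probes of B3galnt2 gave 0.82 and 1.09, all on the same side. On the chosen B3galnt2 probe the lowest shear sample (0.4911) just exceeded the highest control sample (0.4907). Pomgnt1 was at 0.74 ± 0.31 (SE), with a value in 4 of the control samples, and its groups did not overlap either. The groups did not overlap for 7.94% of all probes. In alternative settings Pomk passed when centring used only features with no missing value. Pomk and B3galnt2 passed with no array block and with the replicate number as a block, and Pomgnt1 passed with no array block. Gmppb was at 0.50, Pomgnt2 at -0.38, Dpm2 at -0.04 (0.49 on its other probe) and Dpm3 at 0.01. The list median was 0.01.

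Proteins that bind syntrophins were tested for 6 of 14 genes, with a median of 0.12, and none passed. Atp2b4, a calcium pump of the plasma membrane, lay at 1.05 ± 0.46 (SE), with a value in 4 of the control samples. The cholesterol transporter gene Abca1 lay at -0.33, and its other probes gave -0.41 and 0.26. The kinase genes Mast1 and Mast2 were at -0.12 and 0.33, and Plekha1 and Grb2 at 0.20 and 0.03. The other probes gave 0.76 and 0.86 for Mast2, 0.58 for Plekha1, and 0.15, 0.39 and -0.30 for Grb2, and none of these passed (limma). On the other Plekha1 probe the groups did not overlap, with -0.54 to 0.06 in shear and -1.40 to -0.58 in control samples. The same held for 7.94% of all probes. Adjusted p for the 6 genes ranged from 0.311 (Atp2b4) to 0.971 (Grb2) in limma.

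Flnc was the member of the cytoskeletal list that passed, of 8 tested. It encodes filamin C, an actin crosslinker that binds sarcoglycans in muscle. Its log2 signal in shear replicates 1 to 6 was 4.11, 3.82, 5.33, 4.81, 4.35 and 3.55. In control replicates 1 to 6 it was 2.37, 2.64, 2.42, 1.44, 1.96 and 2.15. Every shear sample was above every control sample, and the groups did not overlap for 7.94% of all probes. The means were 4.33 ± 0.66 in shear and 2.16 ± 0.42 in control samples (SD, n = 6 each), a change of 2.17 ± 0.42 (SE) or 4.49-fold, with adjusted p = 0.0200 (limma, Benjamini-Hochberg).

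The gene had 1 probe, and its call held in 26 of 30 settings. It was lost without any 1 of the 3 shear arrays, at adjusted p = 0.0512, 0.123 and 0.0508 for replicates 1 and 2, 3 and 4, and 5 and 6, and without the array of control replicates 5 and 6, at 0.0573 (limma). The change itself was 2.35, 1.80, 2.36 and 2.11 in these 4 settings. The other tested genes of that list ranged from -0.63 (Macf1) to 0.61 (Krt19), with a list median of 0.23, and another Macf1 probe gave -0.29. Of 5 laminin-binding integrins 4 were tested and none passed, with Itga7 at 0.55 ± 0.25 and Itga3 at -0.57 ± 0.30 (SE), adjusted p = 0.318 and 0.422 (limma). The other Itga3 probes gave -0.40 and -0.46. Itgb1 was at 0.35, and its other probes gave 0.74, 0.60, 0.46 and -0.15, none of which passed. The groups did not overlap for Itga7 and for the Itgb1 probes at 0.74 and 0.60, as for 7.94% of all probes.

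**Figure D4:**
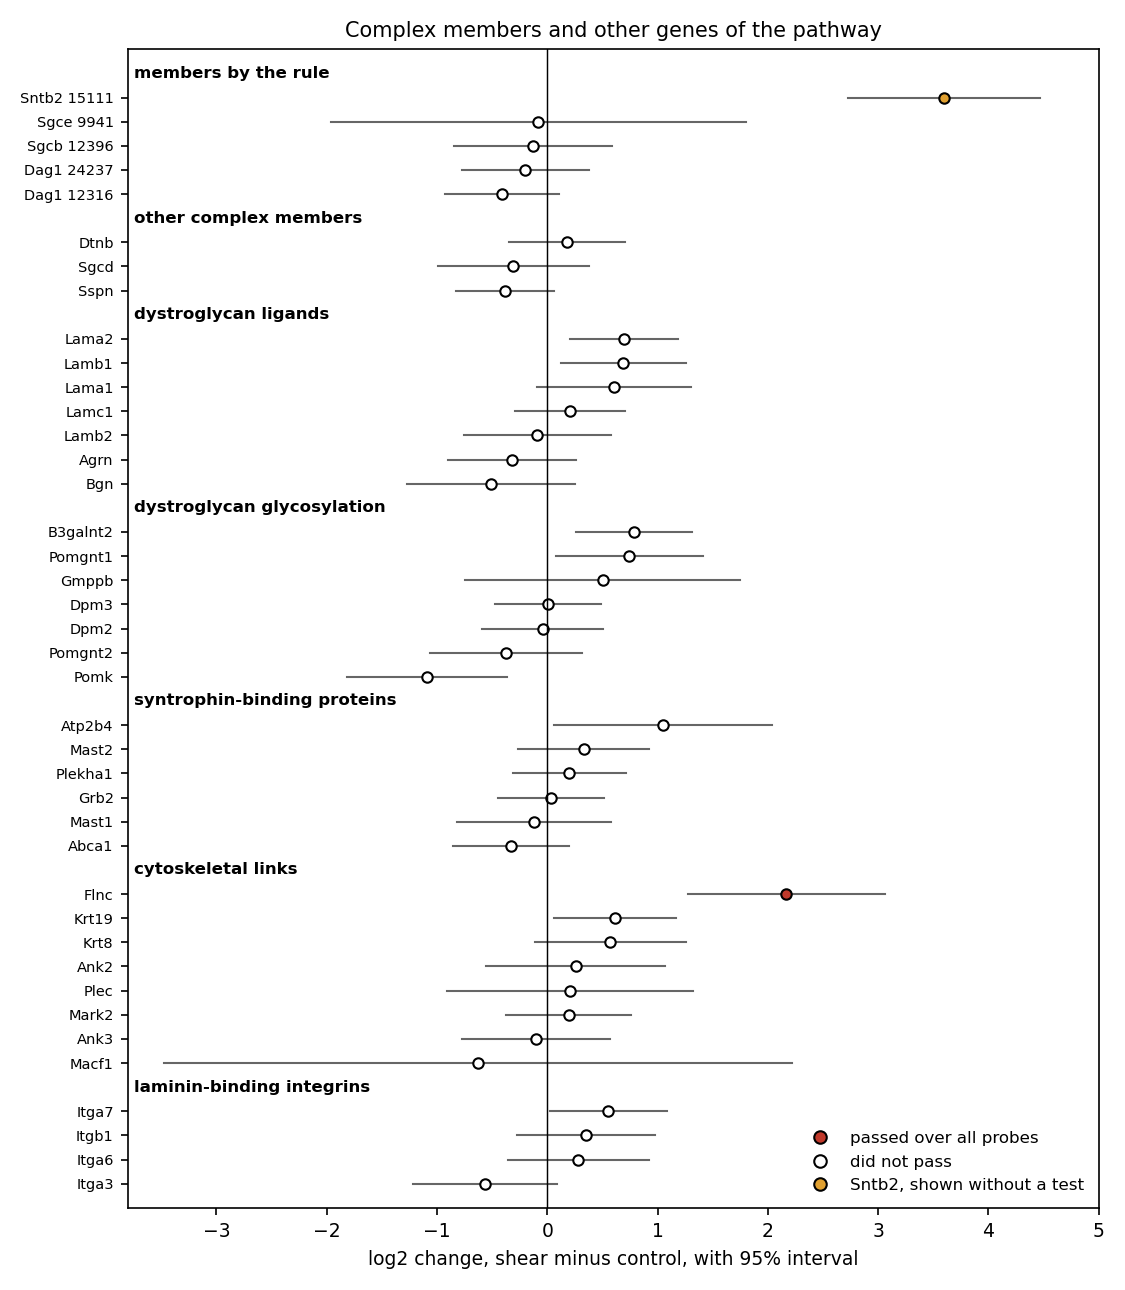
Log2 change, shear minus control, with 95% interval for the 5 complex probes and the 35 pathway genes, grouped by list. Red marks the gene that passed (Flnc, 2.17), white those that did not, and orange Sntb2 (3.59), which is shown without a test.

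The genes whose signal ran most like that of Sntb2 were sought among 12630 named probes with a value in all 12 samples. A gene with several such probes was represented by the probe that correlated best, and its other probes are not given. Myc had 4 tested probes, Slc20a1 3 and Srsf2 2. By Pearson correlation over the 12 samples these were Myc (0.99), a growth-promoting transcription factor, then Coq10b (0.99), the phosphate transporter Slc20a1 (0.98), Nmd3 (0.98), which exports the large ribosomal subunit, and the splicing factor Srsf2 (0.97). All of them were higher in shear samples, by 1.85, 2.22, 3.67, 1.23 and 1.72 on the log2 scale. The points form 2 separate groups and pairs of them share an array, so a correlation over all of them includes the difference between groups. After subtraction of each group's mean, the correlation with Sntb2 was 0.84 for Myc, 0.78 for Coq10b, 0.64 for Slc20a1, 0.64 for Nmd3 and 0.82 for Srsf2.

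**Figure D5:**
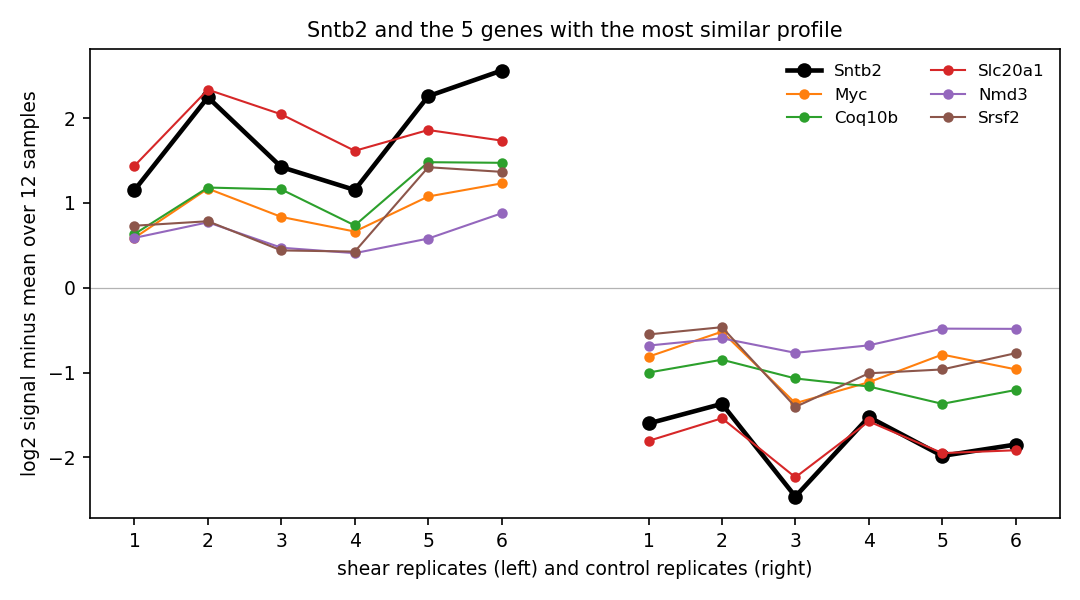
Log2 signal minus the mean over 12 samples (vertical axis) of Sntb2 and the 5 genes with the highest correlation to it, by replicate, shear on the left and control on the right. Lines only join a gene's points, since replicates have no order. All 6 genes lie above 0 in every shear sample and below 0 in every control sample, and the 5 were chosen for their likeness to Sntb2.

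By the correlation within groups alone, the highest were Aacs (0.91), Zfp367 (0.91), Rpl27a (0.86), Foxn3 (0.86) and Myc (0.84). Their flow changes were 0.54 ± 0.24, -0.48 ± 0.40, -0.02 ± 0.31, -0.78 ± 0.36 and 1.85 ± 0.28 (SE). Rpl27a had 3 tested probes and Foxn3 4, and here too the probe that correlated best was taken. Myc was on both lists, but the correlation over 12 samples includes the part within groups, so the lists are not independent. The other complex probes had within-group correlations with Sntb2 of -0.07 and 0.12 (Dag1), -0.15 (Sgcb) and -0.56 (Sgce). These are descriptions over 12 samples on 6 arrays. The listed genes were picked as the highest among 12630 candidates, so their high correlations follow in part from the choice.

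Osteoblast markers had a signal in part, and so had markers of other cell types, given below. Of 13 such genes 6 were tested. Sparc averaged 5.60 in shear and 5.48 in control samples, and the collagen I chain gene Col1a2 4.45 and 4.40. On these probes both were far above their block medians in both groups. The other tested probes averaged 4.37 and 5.08 for Sparc, with shear samples from 1.25 to 6.63, and 1.16 and 0.71 for Col1a2. Col1a1 averaged 1.40 in shear and 1.65 in control samples, and Msx2 -2.28 and -1.65. Alpl lay below its block median, at -0.95 and -1.01, and Pth1r had a value in 1 sample. Dlx5 was lower under shear on its 1 tested probe, at -0.97 ± 0.23 (SE, limma adjusted p = 0.0479). This is close to the threshold of 0.05, and whether the call held in the alternative settings is not reported here. The other osteoblast markers did not pass. Markers of muscle, in which the complex is abundant, were tested for 4 of 9 genes and none passed. Among them Tnnt1, the gene of slow skeletal troponin T, was above its block median in each sample with a value. It gave 4.41 and 4.56 in shear replicates 1 and 2, 2.05 and 1.77 in replicates 5 and 6, and no value in 3 and 4. The 6 control samples ran from 3.19 to 4.20, and the change was -0.59 ± 0.56 (SE, limma adjusted p = 0.689). The other tested muscle markers averaged 0.23 in shear and 0.41 in control samples (Myh3), -2.06 and -2.07 (Mylpf), and -0.64 and -0.64 (Cnn1). Another Cnn1 probe averaged -0.74 and -1.40. Ckm had no value in any sample, and the summed log2 signal of the 2 muscle markers measured in all samples was -2.61 to 0.94 in shear and -1.56 to 0.60 in control samples. The endothelial (6 tested), macrophage and osteoclast (4) and adipocyte (4) markers did not pass either, and their summed signals overlapped between groups.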

How the data were processed

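The authors deposited log2 values in a single file, and no scanner output was used here. Its cells are partly empty, with 17080 of 28704 features complete over the samples and 3206 empty throughout. Tested on the file, every log2 value is a whole number of net fluorescence units over the block's median, in 576 of 576 combinations of block and sample within 0.002. How the arrays were scanned, corrected for background and filtered is not stated in those sources. Centring on the sample medians moved nothing. Probes needed 4 of 6 values per group. They were fitted with limma 3.58.1 (R 4.3.3, data.table at version 1.17.8), using group and dye as fixed effects and arrays as a random effect with a correlation of 0.727. Array pairs were inferred from the design and dyes, with correlations of 0.954 to 0.981 within pairs and 0.873 to 0.915 between other samples of a group. Each group lay on 3 arrays, while the degrees of freedom count 12 samples, so p-values can be too small. Benjamini-Hochberg adjustment ran over all 21883 probes. In simulated data for this comparison, 14% of 100 probes changed by 1 on the log2 scale and 81% of 100 changed by 2 were recovered, with 6 false calls of 101.

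Symbols came from the platform annotation, and 18267 of 18511 single-symbol probes were updated through their Entrez number. Where a gene of the pathway or marker lists had several probes, the one with most values and then the highest mean stood for it. The members and lists were chosen with earlier results of these data known. The genes named were those of all member probes, the called genes and the 2 smallest p of each list, and the 5 genes most like Sntb2 by each of 2 correlations. Some other list members are given with values beside these. Python 3.11.15 with numpy 2.4.6, pandas 2.3.3 and matplotlib 3.10.9 made tables and figures. Alternatives covered centring, normalization, filters, block, dye and each sample or array left out.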

Additional observations from a re-analysis of the deposited data

Results flagged for a closer look

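The 10 groups of the complex probes held no sample far from the rest. In all, 76 groups of samples were tested, among them those of the other genes named, and in 4 of them 1 sample stood apart. The ratio given for each is that sample's distance to its neighbour divided by the range of the group. Chance gives about 1 in 20 for independent samples, and samples of an array are not independent. Lama2 was low in shear replicate 2, at 2.16 against 2.73 in the next sample (ratio 0.679). Pomk was low in control replicate 4, at -1.05 against -0.31 (ratio 0.727). Zfp367 was low in control replicate 3, at -0.68 against 0.06 (ratio 0.688). Shear replicate 2 had the fewest features with a value in its group, 21847 against 23039 in the next (ratio 0.636).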

How the results depend on the processing

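Over 30 alternatives the Sntb2 change moved by less than its spread between replicates. The Dag1, Sgcb and Sgce probes passed in none of the settings in which they were fitted. Probes called over the whole array numbered 354. The count was 235 with quantile normalization, 2664 with no array block, 106 with each array averaged, 558 with no dye term and 232 with 1 probe per gene. Leaving out 1 replicate gave 180 to 368. Leaving out an array gave 210, 75 and 108 without shear replicates 1 and 2, 3 and 4, or 5 and 6, and 194, 234 and 143 without control replicates 1 and 2, 3 and 4, or 5 and 6. Calls were 87.6% higher in the main setting, 67.5% when centred on features measured in all samples, 70.0% with cyclic loess, 74.0% with no array block and 71.4% without control replicates 3 and 4. With the replicate number as a block (replicate block) 2240 probes passed. Same-numbered samples correlated at -0.09 to 0.12 in their deviations, and 2 of 12 samples correlated best with their own number, so the numbers were not taken to pair samples. Pathway genes called were 1, and leaving out 1 replicate kept the count at 1. They were 2 when centred on features measured in all samples, 7 with no array block, 5 with the replicate block, and 0 without shear replicates 1 and 2, 3 and 4, 5 and 6, or control replicates 5 and 6. With 1 replicate left out, the Sgce change ranged from -0.52 to 0.34. It turned positive without shear replicate 1 (0.14) or 6 (0.081), without control replicate 2 (0.096), 3 (0.34) or 6 (0.0025), without the arrays of shear replicates 1 and 2 (0.075) or 5 and 6 (0.10), and without that of control replicates 5 and 6 (0.29). The Sgcb change did so without control replicates 1 and 2 (0.056) or 5 and 6 (0.0083). The cause was not tested. The number of arrays limits the precision.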
